A study of Mus musculus with 44 samples.

Results

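The clustered protocadherins are neuronal cell surface adhesion proteins encoded by 3 adjoining gene clusters on mouse chromosome 18. All protein-coding genes whose symbol starts with Pcdha, Pcdhb or Pcdhg followed by a letter or digit were taken, which gave 57 of the 53715 rows of the RNA table: 14 Pcdha, 22 Pcdhb and 21 Pcdhg genes. Among the Pcdha rows the symbol Pcdha11 occurs on more than a single row and no row carries Pcdha10, so these rows are not all distinct symbols. Pcdhgb8, annotated as a pseudogene, was left out. In the mm10 build the Pcdha genes span chr18:36930285-37188897 (258.6 kb), the Pcdhb genes chr18:37264998-37521419 (256.4 kb) and the Pcdhg genes chr18:37661775-37841873 (180.1 kb). Peaks that overlapped a span extended by 20 kb on each side were taken with them: 25 of 89792 in the table of open chromatin (ATAC), and 24 of 123818, 33 of 141298, 38 of 127817 and 39 of 132740 in the tables of the active histone mark H3K27Ac from 4 brain regions.

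The study compared adult mice with a Polg(D181A) mutation, in the gene for the mitochondrial DNA polymerase, with wild-type (WT) mice, and the mutants serve as a bipolar disorder model. Transcripts were measured in the paraventricular thalamic nucleus (PVT), a midline nucleus tied to arousal and mood, in 5 groups of 4 libraries: WT euthymic COX+, and 4 Polg(D181A) groups that combine a euthymic or a depressive behavioural state with COX+ or COX- staining. COX (cytochrome c oxidase) is a respiratory chain enzyme whose loss marks cells with defective mitochondrial DNA. ATAC in PVT, and H3K27Ac in PVT and in the regions labelled COR (cortex), CP (caudate putamen) and NAC (nucleus accumbens), were measured in 2 WT and 2 Polg(D181A) libraries each, from nuclei sorted for the neuronal protein NeuN. The strain is given as C57BL/6, except that the 4 ATAC libraries read C57BL/7, C57BL/8, C57BL/9 and C57BL/10. No WT group is depressive or COX-, so state and COX class can be compared within mutants alone. In the mouse line known by this allele the mutant enzyme comes from a transgene driven by a Camk2a promoter in forebrain neurons, a background fact that the labels do not state. The labels also do not state whether replicates are separate animals, so the p-values measure the spread between these libraries.

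Each Pcdha and Pcdhg gene has its own promoter and a large first exon for the extracellular cadherin repeats, which is spliced to constant exons shared by the whole cluster. Pcdhb genes are single exons without a shared constant part. A neuron switches on a small, largely random set of these promoters, while the C-type genes (Pcdhac1, Pcdhac2, Pcdhgc3, Pcdhgc4 and Pcdhgc5) at the downstream ends of the Pcdha and Pcdhg clusters are used more uniformly and have dedicated roles. CTCF and cohesin fold distant enhancers onto the chosen promoters. The combination of proteins on a membrane lets a neuron recognise its own branches and keep them apart.

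Because of this layout, RNA counts of neighbouring members are not independent. In 620 of 620 pairs of neighbouring nested genes and libraries, the gene that starts first had a count no lower than the next one, so Pcdha1 held the reads of the whole Pcdha span and Pcdhga1 those of the whole Pcdhg span, introns included. The difference between successive genes gives the reads in the stretch between their starts, and these stretches do not overlap. Rows with the symbol Pcdha11 were left out of the stretches, so that a stretch runs from Pcdha9 to Pcdha12. RNA libraries held 26719334 to 115285349 counts, and their typical biological coefficient of variation was 1.36. Levels are given in the usual CPM unit, a feature's counts over the library total scaled by edgeR's TMM factors, and are not corrected for gene length. Neuronal markers were present in every group, with 6 genes summing to 124 to 1150 CPM in WT and 191 to 2270 CPM in mutants, and thalamic and PVT markers summed to 28.4 to 2820 CPM in WT and 51.3 to 454 CPM in mutants. Markers of astrocytes (37.5 to 874 CPM), oligodendrocytes (1.34 to 277 CPM), microglia (11.4 to 242 CPM) and endothelium (26.9 to 380 CPM) were present too, and their part in the results was not tested. The labels do not state how the RNA of COX+ and COX- samples was isolated or from how many cells, and fewer expressing cells and less RNA per cell cannot be told apart. Polg RNA lay at 0.946 to 3.69 CPM in WT (median 3.02), and 11 of 16 mutant libraries exceeded its upper end. The lowest libraries of euthymic COX- (7.75 CPM) and depressive COX+ (7.32 CPM) did so, and depressive COX- ran from 0.861 to 197 CPM (median 47.9). Polg euthymic COX+, the mutant group compared with WT, ran from 0.559 to 200 CPM with a median of 1.61. In that group Polg RNA thus does not check the genotype label.

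RNA from all 3 clusters varied widely between libraries of the same group. For the Pcdha span the 4 WT libraries held 11, 38.9, 44 and 69.3 CPM (40.8 ± 23.9, mean ± SD, n = 4). Polg euthymic COX+ libraries held 11.7, 63.8, 131 and 138 CPM (86.1 ± 59.8), and euthymic COX- libraries 7.75, 14.2, 159 and 163 CPM (86 ± 86.7). Depressive COX+ libraries held 34.8, 49, 113 and 628 CPM (206 ± 283), and depressive COX- libraries 15.3, 60.8, 91.4 and 452 CPM (155 ± 201). Every pair of groups overlapped, and in each depressive group 1 library stood far above the other 3.

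The Pcdhb genes, summed, were at 0.71, 3.69, 4.92 and 12.4 CPM in WT (5.42 ± 4.96, SD, n = 4). They were at 3.64, 5.02, 25.2 and 118 CPM in Polg euthymic COX+, and at 0.812, 12.7, 13.9 and 16 CPM in euthymic COX-. In depressive COX+ they were at 3.15, 9.99, 14.3 and 68.7 CPM. Depressive COX- was the most divided group: 2 libraries held 0.396 and 1.38 CPM, and the other two 498 and 503 CPM. The Pcdhg span gave 14.1, 29.5, 98.4 and 343 CPM in WT (121 ± 152), and 7.25, 27.3, 37.4 and 108 CPM in Polg euthymic COX+ (45 ± 43.9). It gave 11.4, 53.8, 60.1 and 313 CPM in euthymic COX-, 1.21, 23, 26.3 and 29.4 CPM in depressive COX+, and 11.2, 29.7, 115 and 200 CPM in depressive COX-. Groups overlapped for these clusters as well, as the plot of cluster levels by library shows.

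**Figure D1:**
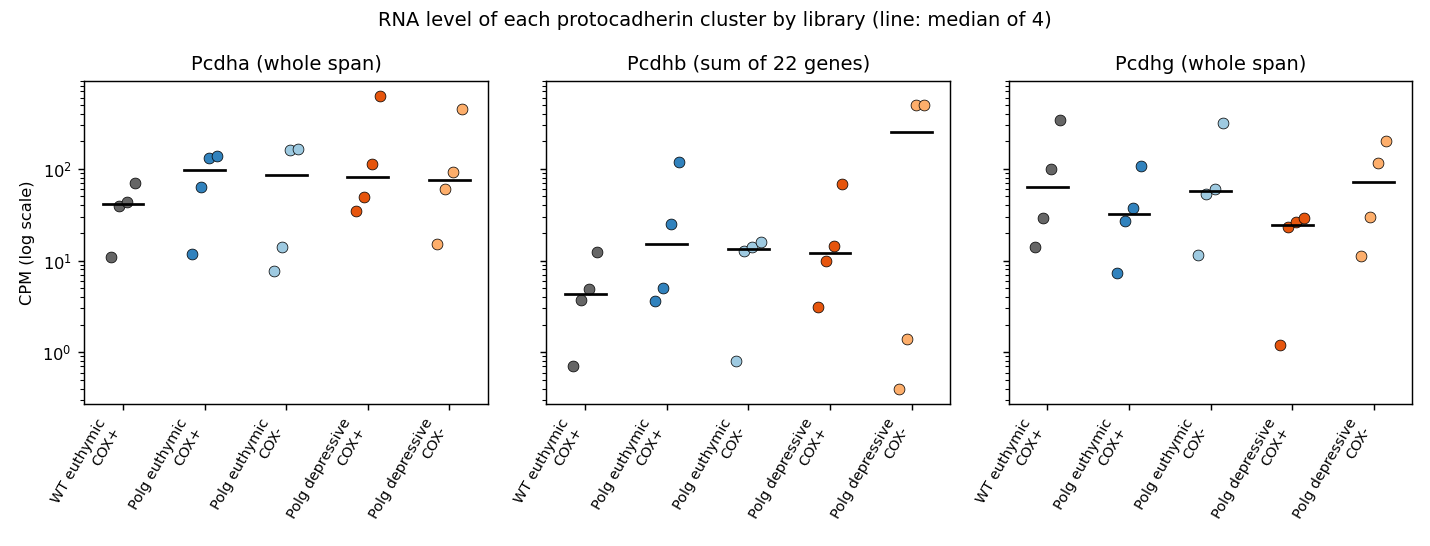
RNA level of each cluster in every library (y axis: CPM on a log scale) by group (x axis), with a line at the median of 4 libraries. Points of the groups overlap in all 3 panels, and the 2 highest Pcdhb values, 498 and 503 CPM, sit in the depressive COX- group beside 2 of its libraries at 0.396 and 1.38 CPM.

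Within a library, most of the Pcdha reads usually came from 1 stretch, and that stretch differed between libraries of a group. Over 20 libraries, 5 of the 12 Pcdha stretches were the fullest at least once. The stretch from Pcdhac1 to Pcdhac2 was fullest in 9 libraries and that from Pcdha12 to Pcdhac1 in 7. The fullest stretch held a median of 64.4% of the cluster's counts (27.6 to 94.2%), and over 50% in 13 libraries. These 2 stretches are long, with 20.7% and 27% of the span. A different picture came from libraries whose reads fell on short stretches among the alternate genes. The Pcdha library at 628 CPM drew 495 CPM, or 78.9%, from Pcdha3 to Pcdha4, which covers 2.55% of the span, so that stretch held 30.9 times its share by length. The Polg euthymic COX+ library at 138 CPM drew 89.4% from Pcdha1 to Pcdha2 (3.45% of the span), and the depressive COX- library at 91.4 CPM drew 87.1% from the same stretch. The library at 452 CPM instead drew 64.2% from Pcdhac1 to Pcdhac2.

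In the Pcdhg cluster 9 of 21 stretches were the fullest in at least 1 library. The stretch from Pcdhga12, the last A-type gene, to Pcdhgc3 was fullest in 7 libraries and the end of the cluster from Pcdhgc5 on in 4. The fullest stretch held a median of 50.8% (22.5 to 95.8%) and over 50% in 10 libraries. The WT library at 343 CPM drew 328 CPM, or 95.8%, from Pcdhga11 to Pcdhga12 (5.45% of the span). The euthymic COX- library at 313 CPM drew 94.2% from Pcdhga12 to Pcdhgc3, and the depressive COX- library at 200 CPM drew 83.1% from Pcdhgc4 to Pcdhgc5. The map of stretch shares gives every stretch of both clusters.

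**Figure D2:**
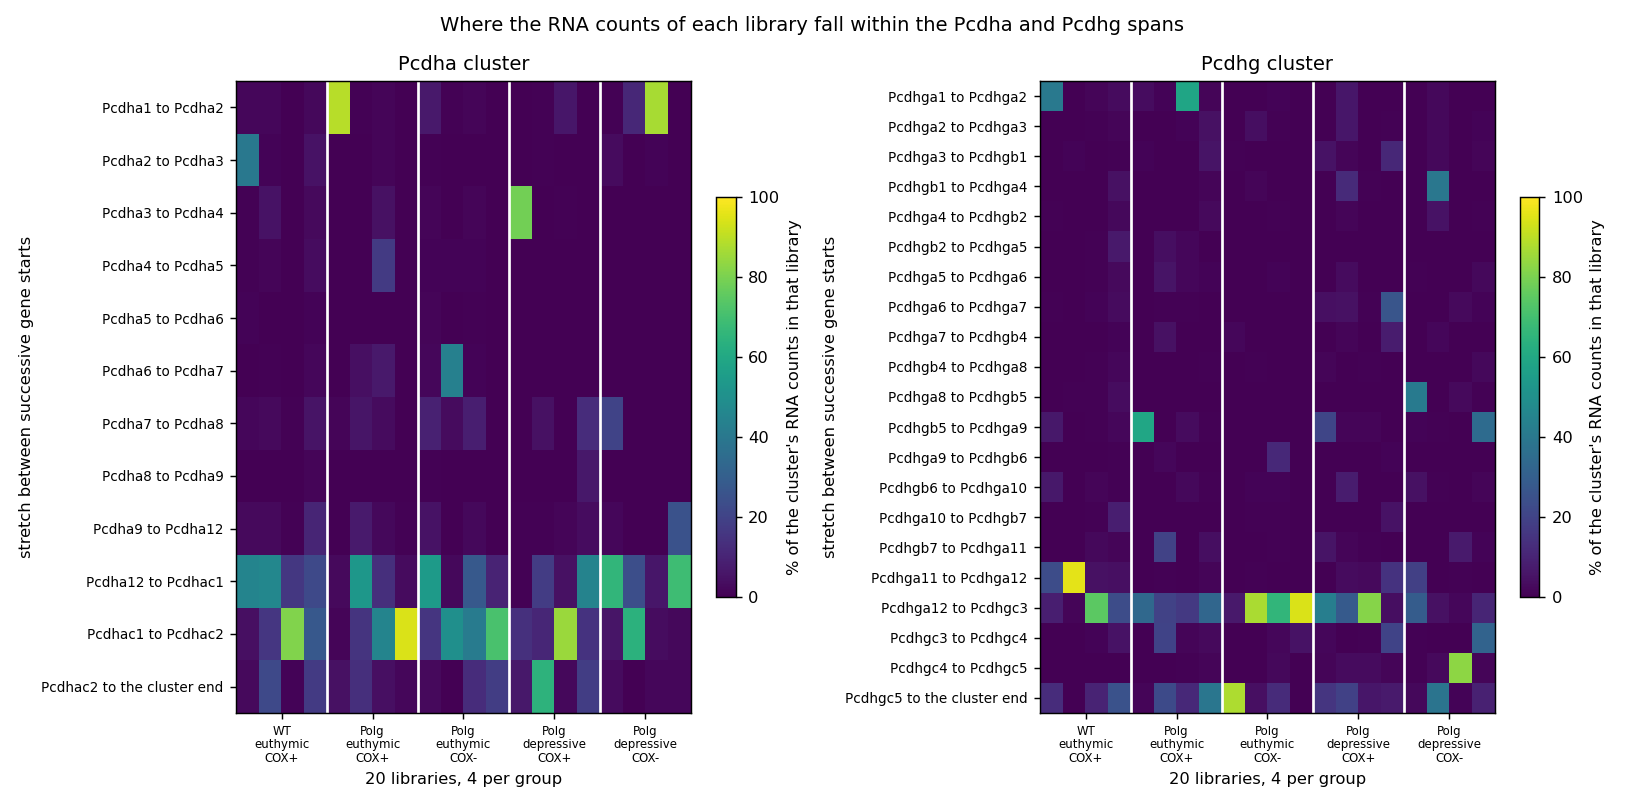
Share of a cluster's RNA counts (colour, 0 to 100%) in each stretch between successive gene starts (y axis, upstream at the top) for 20 libraries (x axis, 4 per group, white lines between groups, no order within a group). Bright cells among the alternate genes include 78.9% for Pcdha3 to Pcdha4 and 95.8% for Pcdhga11 to Pcdhga12, while the rows near Pcdhac1, Pcdhac2 and Pcdhgc3 are filled in libraries of every group.

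The single-exon Pcdhb genes, whose counts do not overlap one another, showed the same unevenness gene by gene. The top Pcdhb gene held a median of 51.6% of a library's Pcdhb counts (13.3 to 97.3%), and 16 of the 22 genes were on top in at least 1 of 20 libraries. Pcdhb counts per library ran from 10 to 21016 (median 424.5), so in the lowest libraries the top gene rested on a few reads. The number of Pcdhb genes with any count was a median of 17.5 per library, yet in 5 libraries no gene exceeded 1 CPM and in no library did more than 7. Of the 2 depressive COX- libraries near 500 CPM, one drew 97.3% from Pcdhb1, at 485 CPM, and the other 43.7% from Pcdhb21, at 219 CPM. Pcdhb1 had no read in 13 of 20 libraries and did not pass the filter on low counts, and 97.8% of its summed level lay in that library. For Pcdhb21 the share of its highest library was 98.1%. Over all members of a cluster the median share of the highest library was 67.2% for Pcdhb, 28.9% for Pcdha and 24.9% for Pcdhg, beside 44% for all genes that passed the filter. The Pcdhb median includes the 6 genes that did not pass it. The nested counts of Pcdha and Pcdhg sum many stretches, which Pcdhb counts do not.

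Counted from its start to the cluster end, each C-type gene had reads in every library. These counts take in the constant exons that the whole cluster shares, so they are not specific to the C-type gene. The stretches from Pcdhgc3 to Pcdhgc4 and from Pcdhgc4 to Pcdhgc5 were each at 0 in 1 library, of depressive COX+ for the first and of WT for the second. Pcdhac1 was at 2.59, 4.2, 19.6 and 56.9 CPM in WT, and at 1.32, 2.57, 4.53 and 291 CPM in depressive COX-. Pcdhac2, which serotonergic axons need to space themselves, was at 0.71, 0.934, 2.43 and 7.47 CPM in WT, 0.502, 2.39, 6.21 and 8.68 CPM in Polg euthymic COX+, and 0.177, 0.352, 0.995 and 28.5 CPM in euthymic COX-. The highest counts from the Pcdhac2 start to the cluster end were in depressive COX+, at 1.06, 20.5, 22.5 and 40.8 CPM. They were 0.429, 1.08, 1.15 and 1.58 CPM in depressive COX-. So 3 of 4 depressive COX+ libraries lay above all depressive COX- libraries, and the fourth lay among them. The difference did not pass the test (log2 fold change -4.32 for COX- over COX+, SE 1.71, edgeR quasi-likelihood adjusted p = 0.165).

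The counts of Pcdhgc3 and Pcdhgc4 also hold the reads of the genes downstream of them, and all Pcdhg counts those of the shared constant exons. From its start to the cluster end, Pcdhgc3 was at 0.271, 2.81, 4.32 and 7.46 CPM in depressive COX+ and at 1.06, 4.75, 47.1 and 168 CPM in depressive COX-, with WT at 1.56, 2.15, 8.98 and 12.8 CPM. Pcdhgc4, the isoform on which cortical interneurons depend for survival, was on the same basis at 0.271, 2.18, 2.64 and 3.88 CPM in depressive COX+ and at 0.858, 1.19, 47 and 168 CPM in depressive COX-. In both nested counts 2 depressive COX- libraries lay above every depressive COX+ library and the groups overlapped. The stretch from Pcdhgc3 to Pcdhgc4 alone was at 0, 0.171, 0.439 and 5.29 CPM in depressive COX+ and at 0.0478, 0.198, 0.429 and 3.57 CPM in depressive COX-. That from Pcdhgc4 to Pcdhgc5 was at 0.0362, 0.314, 0.329 and 0.892 CPM in depressive COX+ and at 0.158, 0.231, 2.73 and 166 CPM in depressive COX-. The high Pcdhgc3 values thus lay downstream of its own stretch, and the library at 47 CPM of Pcdhgc4 held most of it from Pcdhgc5 on. Pcdhgc5, the last C-type gene, counted with the constant exons, was at 1.17, 1.42, 7.43 and 12.4 CPM in WT. It was at 0.627, 1.03, 1.64 and 44.3 CPM in depressive COX-, so that the high Pcdhgc4 library at 168 CPM was not high from Pcdhgc5 on.

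The filter on low counts left 51 members (14 Pcdha, 16 Pcdhb and 21 Pcdhg) of 28446 genes in the RNA tests. The first comparison asks what the mutation does in euthymic mice, in COX+ samples. The fitted change of Polg over WT was above 0 for 14 of 14 Pcdha genes (median log2 0.63), 8 of 16 Pcdhb genes (median -0.14) and 1 of 21 Pcdhg genes (median -1.49), beside a median of -0.02 over all genes. Since Pcdha and Pcdhg counts are nested, such counts of genes are not separate observations, here or in the comparisons that follow. The separate Pcdhg stretches went both ways, as from Pcdhga11 to Pcdhga12 (log2 -8.98) and from Pcdhgb5 to Pcdhga9 (log2 3.15). The former held 0.639, 1.22, 23.1 and 328 CPM in WT and 0.368 CPM or less in Polg euthymic COX+. Pcdhga12, counted from its start past that stretch, had a log2 change of 0.423. No member passed the test at an adjusted p under 0.05 (edgeR quasi-likelihood, Benjamini-Hochberg over all genes), where the share of all genes called was 0%. At an unadjusted p under 0.05 there were 2 members, beside 15.3% of all genes, and DESeq2 (with 7.91% of all genes called) and limma voom called 0 members. The smallest p was that of Pcdhb22, at 0, 0.0692, 0.0946 and 0.206 CPM in WT and 0.0231, 0.0657, 0.0736 and 32.4 CPM in Polg (log2 6.34, SE 2.27, edgeR adjusted p = 0.23). A single library set this value, and the fitted log2 change without it was -0.84. Pcdhb13 came next, with a library at 80.1 CPM beside 0.0231, 0.0876 and 0.118 CPM in Polg and 0 to 0.89 CPM in WT (log2 5.77, edgeR adjusted p = 0.237). It was the same library for both genes, and without it the fitted log2 change of Pcdhb13 was -2.23.

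COX- and COX+ samples of euthymic mutants differ in respiratory enzyme staining. The fitted change was above 0 for 21 of 21 Pcdhg genes (median log2 1.52), 13 of 14 Pcdha genes (median 0.46) and 3 of 16 Pcdhb genes (median -1.99). The Pcdhg counts are nested, and its separate stretches went both ways. Examples are Pcdhga12 to Pcdhgc3 (log2 2.8) and Pcdhgb5 to Pcdhga9 (log2 -7.96). No member was called by edgeR, DESeq2 or voom, with 0% of all genes called by edgeR. At an unadjusted p under 0.05 there were 6 members, all Pcdhb, beside 21.2% of all genes. Pcdhb13 had the smallest p, with 0, 0, 0.0177 and 0.0302 CPM in COX- against the COX+ values above (log2 -10.3, SE 2.7, edgeR adjusted p = 0.123). The groups overlapped at the low end, and without the library at 80.1 CPM the fitted log2 change was -2.31. Pcdhb22 followed (log2 -5.92, SE 2.24, edgeR adjusted p = 0.148).

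In depressive mutants the Pcdhg span stood at 11.2 to 200 CPM in COX- and 1.21 to 29.4 CPM in COX+, and 2 of 4 COX- libraries lay above all COX+ libraries. The fitted change was above 0 for 21 of 21 Pcdhg genes (median log2 2.16), beside a median of -0.03 over all genes, 10 of 14 Pcdha genes (median 0.58) and 10 of 16 Pcdhb genes (median 1.14). The separate Pcdhg stretches again went both ways, as from Pcdhgc4 to Pcdhgc5 (log2 6.74) and from Pcdhga10 to Pcdhgb7 (log2 -3.59). No member was called by edgeR, with 0% of all genes called. At an unadjusted p under 0.05 there were 10 members, beside 19.9% of all genes. DESeq2 called 4 members, with 12.8% of all genes, and voom called 0. Lower in COX- were Pcdhb16 and the count from the Pcdhac2 start to the cluster end. Higher in COX- were the nested counts of Pcdhgc3 and Pcdhgc4. Pcdhb11, at 0, 0, 0.0181 and 0.0394 CPM in COX+ and 0, 0.0658, 0.241 and 102 CPM in COX-, had the smallest edgeR p (log2 10.5, SE 2.74, edgeR adjusted p = 0.132). Pcdhb21, at 0, 0.0131, 0.0366 and 0.0542 CPM in COX+ and 0.0268, 0.0658, 0.0989 and 219 CPM in COX-, was next (log2 11, SE 3.01, edgeR adjusted p = 0.132). The 102 and 219 CPM came from the same library.

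Averaged over both states, the COX- over COX+ change was above 0 for 21 of 21 Pcdhg genes (median log2 1.84), 10 of 14 Pcdha genes (median 0.50) and 5 of 16 Pcdhb genes (median -0.45). The nested Pcdhg counts hide stretches of either direction, such as Pcdhgc4 to Pcdhgc5 (log2 3.87) and Pcdhgb5 to Pcdhga9 (log2 -4.01). No member was called by edgeR, with 0% of all genes called. The smallest adjusted p among Pcdhg genes was 0.106, for Pcdhgc4 counted to the cluster end (log2 3.22, SE 1.19, edgeR). At an unadjusted p under 0.05 there were 15 members (8 Pcdhg and 7 Pcdhb), beside 22.8% of all genes. DESeq2 called the nested counts of 8 Pcdhg genes higher in COX-, from Pcdhga9 to Pcdhgc4, where it called 13.3% of all genes. Voom called 0. The smallest edgeR p was again that of Pcdhb22 (log2 -5.28, SE 1.54, edgeR adjusted p = 0.0608), which stood at 32.4 and 10.1 CPM in 1 COX+ library of each state and at 0.318 CPM or less in all COX- libraries.

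The behavioural state was compared within each COX class. In COX+ mutants, depressive over euthymic, the fitted change was above 0 for 14 of 14 Pcdha genes (median log2 0.58), 6 of 16 Pcdhb genes (median -1.17) and 0 of 21 Pcdhg genes (median -1.03), and edgeR called none, with 0% of all genes called. There were 7 members at an unadjusted p under 0.05, all Pcdhb, beside 17.5% of all genes. DESeq2 called Pcdhb14 and Pcdhb16, with 11% of all genes, and voom 0 members. Pcdhb16 was at 0.0116, 0.0219, 0.0717 and 0.132 CPM in euthymic and 0.0723, 0.0732, 2.21 and 7.38 CPM in depressive COX+ libraries (log2 5.3, SE 1.77, edgeR adjusted p = 0.147). Pcdhb6 reached 8.56 CPM in 1 depressive COX+ library and no more than 0.118 CPM in the other 3 (log2 6.71, edgeR adjusted p = 0.141).

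In COX- mutants, depressive over euthymic, the change was above 0 for 13 of 14 Pcdha genes (median log2 0.69), 12 of 16 Pcdhb genes (median 3.09) and 2 of 21 Pcdhg genes (median -0.56). None was called by edgeR, DESeq2 or voom, with 0% of all genes called by edgeR, and 7 members had an unadjusted p under 0.05, beside 22.6% of all genes. Pcdhb11 had the smallest p (log2 9.5, SE 2.67, edgeR adjusted p = 0.0862). Euthymic COX- libraries held 0, 0.0177, 0.0541 and 0.0745 CPM of it. Without the depressive COX- library at 102 CPM the fitted log2 change was 1.56.

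Averaged over both COX classes, 1 member was called between the states. Pcdhb17 was higher in depressive mutants (log2 8.6, SE 1.99, edgeR quasi-likelihood adjusted p = 0.0485), where 1.24% of all genes were called. It stood at 0.0366, 0.0919, 0.238 and 57.7 CPM in depressive COX+ libraries and at 0, 0.0268, 0.132 and 134 CPM in depressive COX- libraries. Euthymic libraries held 0.0116, 0.0219, 0.0294 and 0.43 CPM (COX+) and 0, 0, 0 and 0.0905 CPM (COX-), and WT 0.0231 to 0.159 CPM. The groups overlapped apart from 1 library in each depressive group, and the depressive COX- one was the library that held 102 CPM of Pcdhb11 and 219 CPM of Pcdhb21. Without the library at 134 CPM the log2 change was 4.03 (edgeR adjusted p = 0.117), and without that at 57.7 CPM it was 5.47 (edgeR adjusted p = 0.0748). The call was lost whichever 1 of the 16 mutant libraries was left out (adjusted p 0.0531 to 0.117). DESeq2 gave an adjusted p to 38 members here and called Pcdhb16, with 13.1% of all genes called, and voom called 0. The fitted change was above 0 for 13 of 14 Pcdha genes (median log2 0.71), 11 of 16 Pcdhb genes (median 1.87) and 2 of 21 Pcdhg genes (median -0.70), and 9 members had an unadjusted p under 0.05, beside 22.2% of all genes. Whether the COX difference depended on the state was tested as an interaction, and the smallest adjusted p among members was 0.0534, for Pcdhb11 (edgeR).

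Genes that act on the clusters or with their proteins gave no call in these comparisons. Between the states averaged over COX classes edgeR called 1.24% of all genes, and in every other comparison 0%. An absence of calls in short lists is thus near the share over all genes. Of 20 factors on the clusters, among them Ctcf, the cohesin subunit Rad21, the cohesin loader Nipbl and the chromatin repressor Smchd1, all 20 were tested and 0 were called in any of the 7 comparisons by edgeR. The same held for 22 of 22 tested partners, such as the kinase Ptk2, the WAVE complex subunit Cyfip2 and the sheddase Adam10. The summed level of the factors was 359 to 2720 CPM in WT and 468 to 1520 CPM in mutants. Of 12 protocadherins outside the clusters 11 were tested. Of these 1, Pcdh18, was called lower in depressive mutants averaged over COX classes, where 1.24% of all genes were called. Of 17 genes beside or inside the clusters 10 were tested, with 0 calls.

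In the chromatin tables, a smaller share of protocadherin starts than of other gene starts carried a peak, and among the members the share was highest at the C-type starts. In PVT an ATAC peak lay within 1 kb of the start of 11 of 57 members (19.3%), beside 55.6% of 17492 protein-coding genes on other chromosomes. All 5 C-type starts had one, against 6 of 30 other Pcdha and Pcdhg starts and 0 of 22 Pcdhb starts. H3K27Ac peaks marked 15.8% of member starts in PVT, 14% in COR, 17.5% in CP and 31.6% in NAC, beside 48.9%, 45.6%, 34.4% and 44.6% of the other genes. Of the C-type starts, 3 had a peak in PVT, 4 in COR, 2 in CP and 5 in NAC. These shares are descriptions without a test, and the tables differ in depth and in the number of peaks. The plot of starts with a peak gives all classes side by side.

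**Figure D3:**
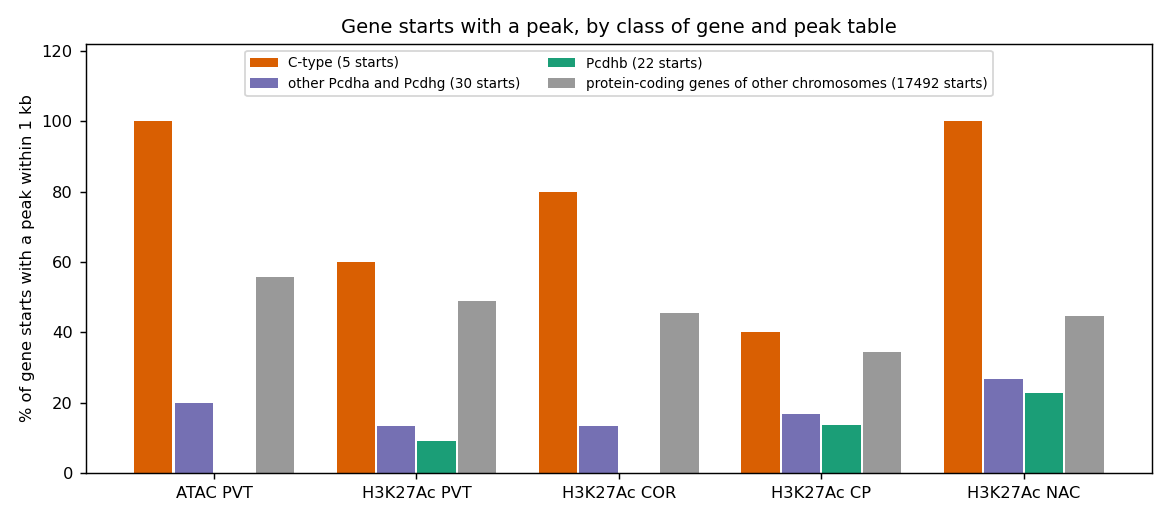
Share of gene starts with a peak within 1 kb (y axis, %) in each of 5 peak tables (x axis), by class of gene. C-type bars (5 starts) are the tallest in every table, at 100% for ATAC, while Pcdhb bars (22 starts) range from 0 to 22.7% and lie below the grey bars of the other genes throughout.

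ATAC libraries held 2932270 to 8040451 counts in peaks. The 11 Pcdha peaks summed to 102 and 90.4 CPM in WT and 74.4 and 83.3 CPM in Polg, over 4.24 kb, and the 14 Pcdhg peaks to 130 and 156 CPM in WT and 136 and 124 CPM in Polg, over 4.82 kb. There was no ATAC peak in the Pcdhb window. The densest member peak (79.9 CPM per kb) lay just past the Pcdhg cluster at chr18:37842608-37842971, with 29.6 and 32.6 CPM in WT and 27.1 and 26.6 CPM in Polg. At the Pcdhac2 start the values were 25.4 and 16.7 CPM in WT and 26.6 and 18.5 CPM in Polg, and at the Pcdhgc4 start 16 and 19.3 against 24.8 and 13.8 CPM. The genotypes overlapped at both of these starts.

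No member ATAC peak was called between Polg and WT by edgeR or DESeq2 (25 of 25 tested), where edgeR called 0.00114% of all peaks. The median log2 change was -0.21 over members and -0.00239 over all peaks, and 3 members had an unadjusted p under 0.05, beside 6.13% of all peaks. The smallest p was at the Pcdha12 start (chr18:37020310-37020638), with 7.12 and 7.41 CPM in WT and 0.775 and 1.11 CPM in Polg (log2 -2.88, SE 0.876, edgeR adjusted p = 0.704). Those Polg values rest on 3 and 10 reads. Next was a peak 4.89 kb before the Pcdhgc3 start (chr18:37801356-37801684), at 12.7 and 10.0 CPM in WT and 4.39 and 2.88 CPM in Polg (log2 -1.68, SE 0.585, edgeR adjusted p = 0.798). The third, 26.2 kb past the Pcdhac1 start, went the other way, at 0.625 and 0.741 CPM in WT and 5.42 and 3.66 CPM in Polg (log2 2.71, edgeR adjusted p = 0.798). These 3 peaks were picked by their p, so the lack of overlap between genotypes in them is not separate support. How often genotypes did not overlap over all peaks was not counted.

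The peak before Pcdhgc3 lies inside an H3K27Ac peak of PVT (chr18:37800294-37802835), which was the member peak of smallest p in that table. It held 17.5 and 24.5 CPM in WT and 10.6 and 11.3 CPM in Polg (log2 -0.94, SE 0.363, unadjusted p = 0.0413, adjusted p = 0.573, edgeR). Both Polg values were below both WT values in ATAC and in H3K27Ac, and neither difference passed the correction. DESeq2 called this H3K27Ac peak and a second one, 59.9 kb past the Pcdhac2 start (3.48 and 4.28 CPM in WT, 0.448 and 0.441 CPM in Polg), as lower in Polg, and it called 10.1% of all peaks of that table. By edgeR, no member peak of the 24 was called, with 0% of all peaks called, and 1 member had an unadjusted p under 0.05, beside 8.09% of all peaks. The plot of PVT peaks shows every member peak in both assays.

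**Figure D4:**
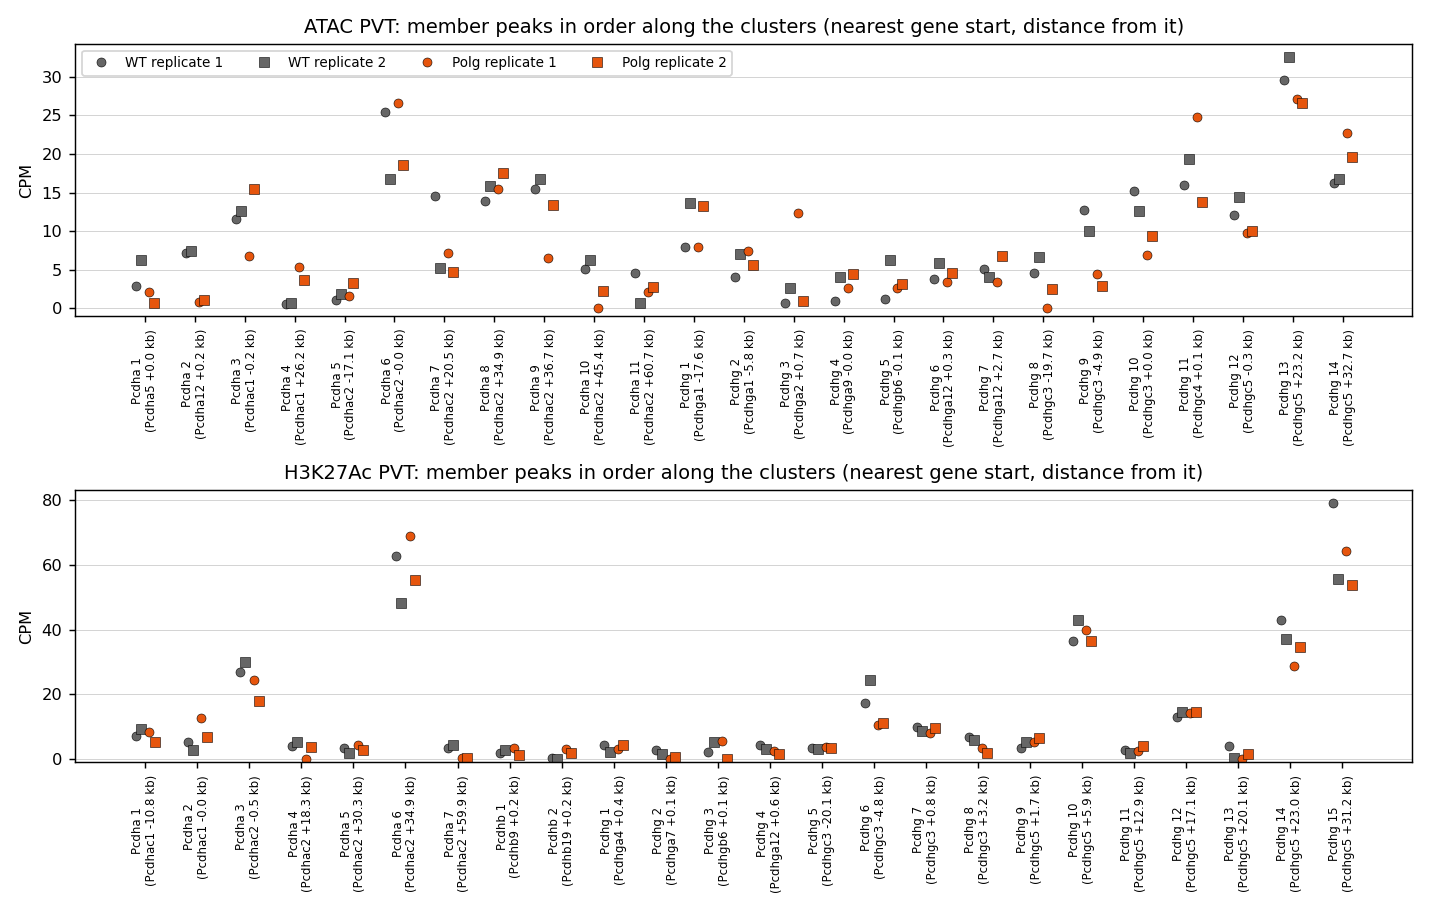
CPM (y axis) of each member peak in ATAC (top) and H3K27Ac (bottom) of PVT, in order along the clusters (x axis: nearest gene start and distance from it), for 2 WT and 2 Polg libraries. At the peaks 4.9 kb before Pcdhgc3 (Pcdhg 9 in ATAC, Pcdhg 6 in H3K27Ac) both Polg points lie below both WT points, while at the tall H3K27Ac peak 34.9 kb past the Pcdhac2 start the genotypes overlap.

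H3K27Ac in PVT was concentrated at the downstream ends of the Pcdha and Pcdhg clusters. The tallest Pcdha peak (chr18:37176053-37181085, 34.9 kb past the Pcdhac2 start, toward the cluster end) held 62.8 and 48.2 CPM in WT and 68.9 and 55.5 CPM in Polg. It contains 2 ATAC peaks, one of which (chr18:37178346-37178743) was the densest ATAC peak of the Pcdha window, at 13.9 and 15.9 CPM in WT and 15.5 and 17.5 CPM in Polg. The peak over the Pcdhac2 start held 26.9 and 29.9 CPM in WT and 24.4 and 18 CPM in Polg, without overlap (log2 -0.42, SE 0.299, edgeR adjusted p = 0.901). In the Pcdhg window a peak 5.93 kb past the Pcdhgc5 start held 36.5 and 42.9 CPM in WT and 40 and 36.5 CPM in Polg, and the last one, past the cluster end, 79.2 and 55.6 against 64.5 and 53.9 CPM. Among the alternate genes, peaks at the starts of Pcdhga4, Pcdhga7, Pcdhgb6 and Pcdhga12 each held 5.45 CPM or less in every library. The Pcdhb window had 2 small peaks, at Pcdhb9 (1.79 and 2.83 CPM in WT, 3.28 and 1.19 CPM in Polg) and at Pcdhb19 (0.426 and 0.0923 CPM in WT, 3.1 and 2.03 CPM in Polg; log2 3.3, SE 2.33, edgeR adjusted p = 0.9).

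Summed per cluster, PVT H3K27Ac was 113 and 102 CPM in WT and 119 and 92.6 CPM in Polg for Pcdha (11.6 kb of peak), and 233 and 212 against 192 and 185 CPM for Pcdhg (28.6 kb). In COR the Pcdhg sum was 211 and 235 CPM in WT and 168 and 180 CPM in Polg, again with both Polg values lower, and the Pcdha sum was 193 and 96.2 against 128 and 140 CPM. In CP the Pcdhg sum was 251 and 96.2 CPM in WT and 119 and 265 CPM in Polg, and in NAC 409 and 275 against 311 and 313 CPM, so the genotypes overlapped there. The Pcdha sum in NAC was 100 and 73.8 CPM in WT and 146 and 119 CPM in Polg, without overlap. In CP it was 164 and 142 CPM in WT and 74.4 and 153 CPM in Polg. Over all tested peaks the median log2 change of Polg over WT was 1.09 in NAC and 0.661 in CP. Over member peaks it was 0.424 and 0.286, so a higher Polg value was not particular to the members there. In PVT and COR the median over all peaks was -0.00289 and 0.104. The Pcdhb sums rested on few short peaks. They were 2.21 and 2.92 CPM in WT and 6.38 and 3.22 CPM in Polg in PVT (2 peaks, 0.392 kb), and 2.4 and 0.109 against 32.6 and 20.8 CPM in NAC (6 peaks, 2.03 kb). Both Polg values were the higher ones in these regions. In CP the Pcdhb sum was 23.9 and 0 CPM in WT and 3.6 and 80.1 CPM in Polg (6 peaks, 2.33 kb), and the COR table had no peak in the Pcdhb window.

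In the other regions many member peaks rested on few libraries. In COR 3 of 33, in CP 12 of 38 and in NAC 7 of 39 member peaks had counts in a single library, beside 10.5%, 34% and 15.3% of all peaks, and none of the 24 did in PVT. By edgeR, 0 of 30 tested members were called in COR, 0 of 26 in CP and 0 of 31 in NAC, where 0%, 0% and 0.00476% of all peaks were called. Without CP WT replicate 1, 2 members were called in CP, with 5.42% of all peaks. Members with an unadjusted p under 0.05 numbered 3, 0 and 0, beside 9.29%, 6.69% and 1.6% of all peaks. DESeq2 called 4 members in COR, 4 in CP and 0 in NAC, with 17.5% and 26.4% of all peaks called in COR and CP. The members of smallest p had no count in either library of a genotype. In COR a peak 2.1 kb past the Pcdhac1 start held 9.57 and 3.9 CPM in WT and 0 in both Polg libraries (edgeR adjusted p = 0.535), and one at the Pcdhga8 start held 0 in both WT libraries and 8.83 and 2.92 CPM in Polg (edgeR adjusted p = 0.535). In CP, a peak 3.33 kb past the Pcdhga12 start was at 0 in WT and at 4.56 and 20.1 CPM in Polg. In NAC, peaks near the starts of Pcdha7 (8.21 and 2.66 CPM) and Pcdhb6 (7.61 and 2.14 CPM) were seen in Polg libraries and at 0 in WT. The peak before Pcdhgc3 that was lower in Polg in PVT had no counterpart in the COR, CP or NAC tables.

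To compare regions, peaks of the 4 H3K27Ac tables that overlapped were merged into loci. The Pcdha window held 34 loci, of which 2 had a peak in every region and 27 in a single one. The Pcdhb window held 12, of which 0 and 10, and the Pcdhg window 36, of which 2 and 22. The shares found in every region were 5.9% for Pcdha and 5.6% for Pcdhg, beside 3.4% of all 369174 loci. The 4 shared loci all lie toward the downstream ends. Locus 1 (chr18:37141395-37145804) covers the Pcdhac2 start. Locus 2 (chr18:37176053-37182187) lies past it near the end of the Pcdha cluster. Locus 3 (chr18:37818549-37828292) covers the Pcdhgc5 start, and locus 4 (chr18:37835040-37854939) runs from the end of Pcdhg into Diaph1, an actin regulator. Their levels, as CPM of the counts in all 12624 shared loci, averaged 87.7, 132, 135 and 310 CPM, which ranked at percentiles 71.7, 86, 86.6 and 98 of those loci.

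At locus 2 PVT ranged from 155 to 214 CPM (188 ± 25.4, SD, n = 4). COR held 126 and 68 CPM in WT and 168 and 184 CPM in Polg, CP, in the same order, 132, 28, 36.4 and 173 CPM, and NAC 102, 87.2, 166 and 91.3 CPM. The region means fell in the order PVT, COR, NAC and CP, and neighbours in that order overlapped. At locus 1 the order was COR (128 ± 39.8), CP (83.9 ± 60.7), PVT (79.1 ± 15.9) and NAC (59.8 ± 46.2). In PVT and COR all 4 Polg values at locus 1 were below the WT values of their region, at 75.7 and 58.9 against 85.5 and 96.4 CPM in PVT and at 89.6 and 102 against 145 and 176 CPM in COR. In CP the Polg values were also the lower ones (42.2 and 32.4 against 96.6 and 164 CPM), while in NAC they were 125 and 44.8 against 53.2 and 16.2 CPM. Over the 4 regions the Polg over WT change at locus 1 was not called (log2 -0.425, SE 0.509, edgeR adjusted p = 0.975). How often genotypes separated in this way over all shared loci was not counted.

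At locus 3 the regions were at 160 ± 48.7 (NAC), 152 ± 44.8 (COR), 141 ± 11.5 (PVT) and 85.4 ± 99.6 CPM (CP). At locus 4 they were at 375 ± 180 (COR), 367 ± 51.8 (PVT), 361 ± 82.3 (NAC) and 136 ± 102 CPM (CP). CP stood lowest at both, with 1 WT library at 2.31 and 1.59 CPM, and its peaks there covered 2.15 and 3.99 kb, against 5.69 and 16.6 kb in PVT. Per kb of peak, CP was the highest region at both loci, at 39.8 and 34.1 CPM per kb against 24.7 and 22.1 in PVT. This was not particular to these loci. Over all peaks of each region, on its own CPM scale, CP was also highest, at 17.4 CPM per kb against 7.39 in PVT, 7.32 in COR and 9.06 in NAC.

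**Figure D5:**
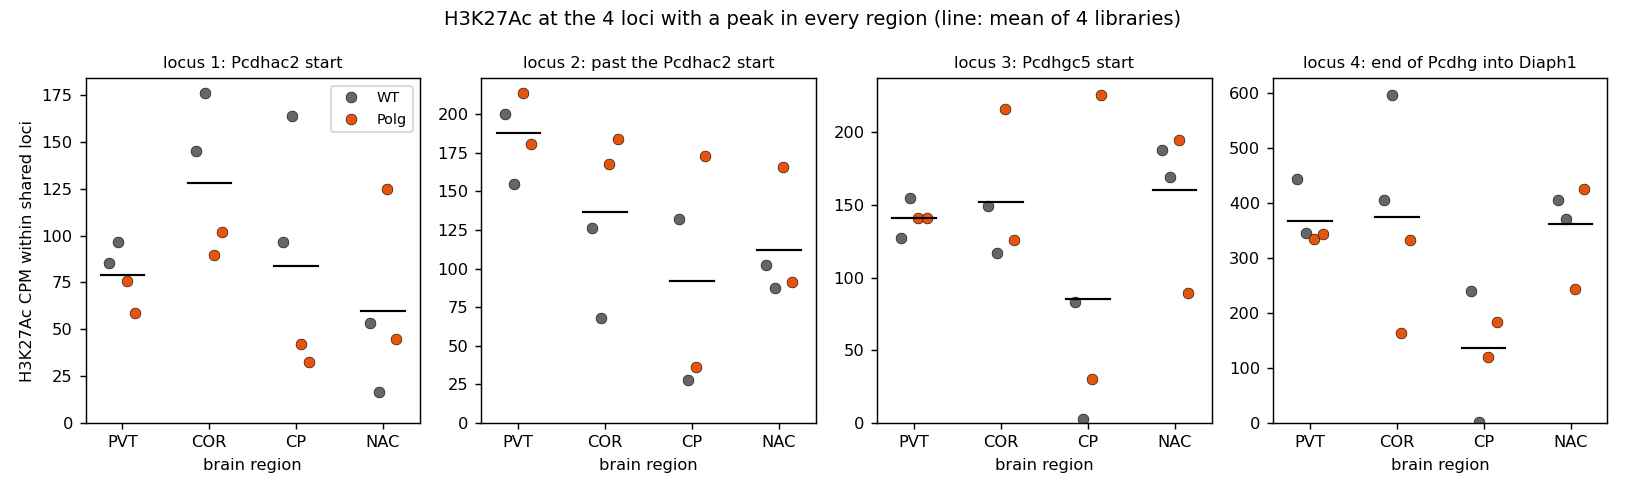
H3K27Ac level (y axis, CPM of the counts in shared loci) at the 4 loci with a peak in every region, by brain region (x axis), for 2 WT and 2 Polg libraries each, with a line at the mean of 4. PVT points lie close together at locus 3, between 127 and 155 CPM, while CP points at the same locus run from 2.31 to 226 CPM.

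None of the 4 loci was called between regions or genotypes by edgeR with all libraries. Without CP WT replicate 1, which leaves the one that is low at loci 3 and 4 as the sole CP WT library, 3 loci were called for PVT against CP, and 2 each for COR against CP and NAC, for CP against NAC and for Polg against WT, where 36.2%, 31.1%, 26.4% and 18.4% of all shared loci were called. The share of all shared loci called was 3.91% for PVT against COR, 12.2% for PVT against CP, 3.84% for PVT against NAC, 7.22% for COR against the mean of CP and NAC, and 2.9% for CP against NAC. For Polg against WT over the 4 regions it was 0.0713%. The smallest p among the 5 region comparisons was that of locus 4 in PVT over CP (log2 1.44, SE 0.84, edgeR adjusted p = 0.312). With the covered length as an offset its sign turned, to -0.62. At locus 1, COR over the mean of CP and NAC gave a log2 of 1.01 (SE 0.604, edgeR adjusted p = 0.367), and -0.16 with that offset. Locus 2 had the smallest p for Polg over WT, at a log2 of 0.46 (SE 0.46, edgeR adjusted p = 0.93). A test of whether the genotype difference depended on the region gave p-values of 0.253 to 0.958 (edgeR, adjusted p = 1 for all 4 loci).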

How the data were processed

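RNA, ATAC and H3K27Ac libraries were analysed as deposited tables of counts per gene or per peak, which the authors made from their reads. Per the submitters' processing notes, STAR, HOMER, featureCounts, Subread and DESeq2 were used, with mm10; settings not given in the sources used here. The 4 input libraries were not used here. RNA columns carry a group and no replicate number, so values are given in ascending order within a group. The members and lists were chosen with earlier results of these data known. Coordinates are those of the tables and of RefSeq GRCm38.p6, which shares mm10 positions.

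Genes or peaks with low counts were removed (filterByExpr), and edgeR 4.0.16 (TMM, robust quasi-likelihood F test, 2-sided, Benjamini-Hochberg over the whole table, adjusted p under 0.05) was fitted to all 20 RNA libraries, to each peak table apart, and to all 16 H3K27Ac libraries at shared loci. SE is the log2 change divided by the root of F. The cluster level was planned as a sum over members. Since nested genes count a read many times (the sum was a median 11.4 times the widest gene for Pcdha and 16.2 times for Pcdhg), the widest gene was used for those clusters. DESeq2 1.42.0, limma 3.58.1 (voom), other filters and scalings, leave-one-out and a replicate block were alternatives. Named genes were the C-type genes, the 3 of highest mean per cluster, called genes and the 2 of smallest p per comparison, and peaks likewise by density, call and p. Other genes and peaks were picked after their values were seen. Same-numbered libraries correlated between genotypes at -0.0514 to 0.0168 in the 5 peak tables. Scripts were tested on simulated data.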

Additional observations from a re-analysis of the deposited data

Results flagged for a closer look

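In groups of 4 libraries, the gap between an extreme library and its nearest neighbour was divided by the range of the group and set against Dixon's 95% critical value. Of 20 groups tested (the levels of the 3 clusters and of Pcdhb17 in 5 groups) 7 exceeded it. The critical value flags about 1 in 20 groups by chance only for normally distributed values, and these CPM are skewed. Pcdhb17 was included because it had been called in these data, so its flags are not separate support. The number of flags was therefore not set against chance. The Pcdha level in depressive COX+ had a ratio of 0.868, set by the library at 628 CPM. The Pcdhb level in the same group had 0.830, set by the library at 68.7 CPM, and the Pcdhg level in euthymic COX- had 0.838, set by the library at 313 CPM. For Pcdhb17 the ratios were 0.957 in Polg euthymic COX+, 1 in euthymic COX- (1 library at 0.0905 CPM and 3 at 0), 0.997 in depressive COX+ and 0.999 in depressive COX-. In each of the 7 the highest value stood out, and the depressive COX+ library at 68.7 CPM of Pcdhb is the one that held 57.7 CPM of Pcdhb17.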

How the results depend on the processing

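Counts of called members depended on the tool and on single libraries. The call of Pcdhb17 between states fell to 0 members with total counts only, with at least 10 counts in 8 libraries, with voom, with only the groups of the contrast, and with any 1 of the 16 mutant libraries left out (0 to 0). With nested genes replaced by disjoint stretches, an alternative chosen after seeing the data, 2 were called there, Pcdhb17 and the stretch from Pcdha6 to Pcdha7. Without a filter on low counts 1 member was called for COX class in euthymic mutants, 3 in depressive mutants and 1 averaged, and 4 for state in COX- mutants. The share of all genes called without the filter or with disjoint stretches is not given here. These counts thus cannot be read as particular to the members. DESeq2 called 4 for COX class in depressive mutants, 8 averaged over states, and 2 for state in COX+ mutants. It called 2 peaks in PVT, 4 in COR and 4 in CP. Leaving out 1 library gave 0 to 2 called peaks in CP, 2 only without WT replicate 1.

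At shared loci, leaving out that same CP library gave 0 to 3 calls for PVT against CP, 0 to 2 for COR against CP and NAC, 0 to 2 for CP against NAC and 0 to 2 for Polg against WT. With at least 100 counts in every library 1 locus was called for PVT against CP (locus 2), and the share of all shared loci called at that setting is not given here. With covered length as an offset, 3 signs turned: locus 4 to -0.62 (PVT against CP) and 0.29 (CP against NAC), and locus 1 to -0.16 (COR against CP and NAC). Leaving out 1 library took the log2 change of Pcdhb22 from -0.84 to 7.20 and that of Pcdhb13 from -2.23 to 6.78 (Polg against WT), and that of Pcdhb22 for COX class in euthymic mutants from -6.98 to 1.25. With a replicate block 0 members were called in each peak table and at shared loci, as without it, and replicate numbers did not pair the samples. RNA columns carry no number, so no block was fitted to them. Of 405 log2 changes under alternatives 365 kept their direction and side of the threshold. A biological coefficient of variation of 1.36 in RNA, and 2 libraries per genotype in chromatin, limit what could be detected.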
